A study of Drosophila melanogaster with 3 samples.

Results

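The Hox genes of Drosophila melanogaster are lab, pb, Dfd, Scr and Antp of the Antennapedia complex and Ubx, abd-A and Abd-B of the bithorax complex, all on chromosome arm 3R. Binding of Tinman around these 8 genes, of 13945 protein-coding genes in the annotation, was examined by ChIP-seq, which sequences the DNA precipitated together with a protein. An entry of a peak list was taken as a member when its summit lay in the gene body or within 10 kb of either end, and no 2 of the 8 windows overlapped. Members were 21 of the 5508 peaks that the authors kept after an irreproducible discovery rate (IDR) analysis, called IDR peaks here, and 125 of the 30000 entries of the list made from the pooled replicates. The 5508 IDR peaks were the same regions as the 5508 highest-scoring pooled entries. A peak therefore has the same rank in both lists. Of all IDR peaks, 98.7% had an entry in every replicate, so an IDR peak can lack one. By the authors' naming, the pooled list and those of single replicates take in background regions along with peaks, so a low-ranking entry of theirs is not a called peak. The lists of single replicates held 112 of 30000 entries there in replicate 1, 130 of 30000 in replicate 2 and 97 of 24711 in replicate 3.

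All samples were whole embryos of both sexes, 0 to 16 h old, from 1 transgenic line that stably expresses Tinman with GFP fused to its C-terminus, and the precipitation used an antibody against GFP. There were 3 biological replicates and no second condition, so nothing here compares genotypes, stages or treatments. The sources used here do not give the promoter that drives the tagged protein. Whole embryos mix every tissue, so a peak cannot be placed in the heart or in any other cell type. The lists give a score for each entry and no read counts, so the depth of each replicate is unknown.

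Hox proteins are homeodomain transcription factors that give the segments their identity along the body axis, and the order of the genes on the chromosome largely follows the order of their domains from head to tail. Their control regions extend over introns and long intergenic stretches and carry enhancers, Polycomb response elements and, in the bithorax complex, boundary elements that separate neighbouring domains. In the embryo, Antp, Ubx, abd-A and Abd-B also divide the heart tube, with Ubx in much of the aorta and abd-A in the posterior heart proper. Tinman is itself a homeodomain factor, required for the heart and dorsal mesoderm.

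Of the 8 genes, 7 had at least 1 IDR summit in their window, and Scr had none. The same window held an IDR summit for 68.1% of all protein-coding genes, and for 77.8% of the 1865 genes whose window was at least as long as that of Dfd, the shortest of the Hox windows at 30.6 kb. The count for the Hox genes was therefore near this background. Together the 8 windows, 498 kb in all, held 42.2 IDR peaks and 251 pooled entries per Mb, against 41.1 and 224 per Mb over the 6 chromosome arms. IDR peaks were 16.8% of the pooled entries there (exact binomial 95% interval 10.7 to 24.5, counting error only), close to the 18.4% of the whole pooled list.

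In the Antennapedia complex, lab, pb and Dfd had 1 IDR peak each and Antp had 7. In the bithorax complex, Ubx had 5, abd-A 4 and Abd-B 2. Only 1.46% of all protein-coding genes had 7 or more IDR summits, and 98.5% had fewer than Antp. The Antp window of 123 kb was the longest of the 8, against a median of 22.2 kb over all protein-coding genes. Per 10 kb of window abd-A stood highest of the 8 with 0.934 IDR peaks, then Antp with 0.569 and Ubx with 0.511. By this density 72.6%, 59.2% and 58.6% of all protein-coding genes stood lower than abd-A, Antp and Ubx. The values for Dfd, Abd-B, lab and pb were 0.327, 0.308, 0.269 and 0.184, below the median of 0.466 over all protein-coding genes. The member peak nearest to the edge of the rule lay 9446 bp from the Ubx body (rank 2753), and the nearest peak outside it 12793 bp from the abd-A body (rank 2869). In pooled entries the order of the genes was another one, with 4.57 per 10 kb at lab, 4.20 at abd-A, 2.76 at Antp and at Ubx, and 0.923 at Abd-B, against a median of 2.73 over all genes.

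**Figure D1:**
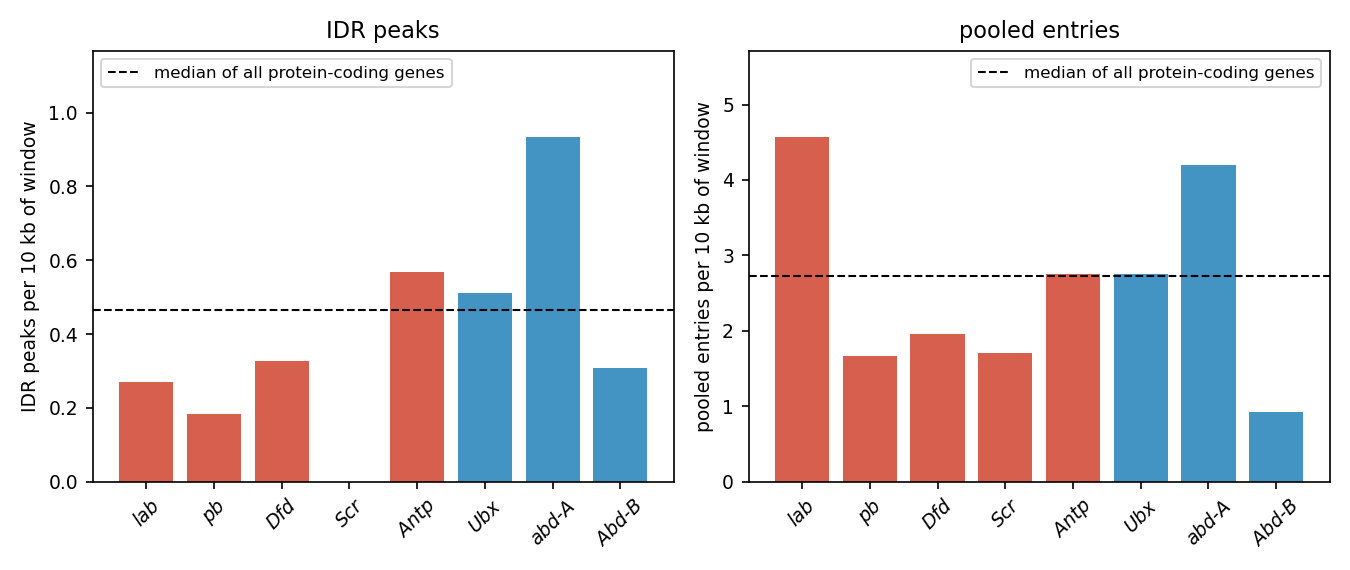
IDR peaks (left) and pooled entries (right) per 10 kb of window at the 8 Hox genes, with genes of the Antennapedia complex in red and of the bithorax complex in blue; bars are counts from 1 list each and have no error, and the dashed line is the median of all protein-coding genes (0.466 and 2.73). abd-A stood highest in IDR peaks at 0.934, Scr had none, and lab stood highest in pooled entries at 4.57.

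For each gene with an IDR summit in its window, the summit with the highest score is shown in sequence. Each stretch is the summit base with 50 bp on both sides, 101 bp in all, read 5′ to 3′ on the plus strand of the RefSeq Release 6 assembly (dm6). Capitals mark matches to any of the 9 motifs that were searched, which occurred in 2 of these 7 stretches.
lab intron, chr3R:6674636-6674736: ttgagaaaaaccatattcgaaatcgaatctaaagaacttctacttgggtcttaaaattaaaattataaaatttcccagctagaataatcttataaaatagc
pb intron, chr3R:6723959-6724059: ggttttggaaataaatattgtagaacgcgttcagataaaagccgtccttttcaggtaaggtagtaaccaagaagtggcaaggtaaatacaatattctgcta
Dfd promoter, chr3R:6791464-6791564: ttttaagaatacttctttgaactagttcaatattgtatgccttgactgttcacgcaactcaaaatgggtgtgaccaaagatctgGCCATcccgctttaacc
Antp intron, chr3R:6914504-6914604: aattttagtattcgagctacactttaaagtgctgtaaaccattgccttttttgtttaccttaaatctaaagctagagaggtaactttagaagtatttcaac
Ubx 3′ side, at the CG10324 promoter, chr3R:16647127-16647227: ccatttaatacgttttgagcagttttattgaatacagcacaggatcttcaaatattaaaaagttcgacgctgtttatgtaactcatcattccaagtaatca
abd-A 3′ side, intergenic, chr3R:16798827-16798927: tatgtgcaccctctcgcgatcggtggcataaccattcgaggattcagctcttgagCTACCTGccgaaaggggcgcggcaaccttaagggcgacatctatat
Abd-B intron, chr3R:16958192-16958292: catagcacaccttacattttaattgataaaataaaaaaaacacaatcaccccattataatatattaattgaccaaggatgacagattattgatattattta

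The strongest Hox peak lay in the bithorax complex. This peak, chr3R:16798719-16799052, had a score of 1204 and rank 120 in the IDR list, 4.77 times the median IDR score. Its summit was 8337 bp beyond the 3′ end of abd-A and 29228 bp from the nearest abd-A start site, in intergenic DNA. The closest TSS of a protein-coding gene, 10566 bp away, was that of Glut3, a glucose transporter gene. Start sites of non-coding genes were not considered. Replicates 1, 2 and 3 gave it scores of 476, 363 and 363 and ranks of 93, 134 and 163, a mean rank of 130 ± 35.2 (SD, n = 3), so it stood near the top in every replicate. Its summit stretch, shown above, was 54.5% GC, against a median of 31.7% over the 21 Hox summits and 34.7% over all IDR summits. It holds CTACCTG, the reverse complement of CAGGTAG, which is the site of Zelda, the factor that opens chromatin in the early embryo.

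The other 3 peaks of abd-A, which specifies the middle abdominal segments, flanked the gene, and none of its 4 IDR summits lay in the gene body. The peak of rank 4624, chr3R:16801121-16801550, lay 5878 bp 3′ of the gene in the non-coding gene lncRNA:TS16. Replicates 1, 2 and 3 ranked it 5267, 2904 and 7059 by the best overlapping entry, and replicate 2 ranked it 18032 by the overlapping entry with the nearest summit. Upstream of the gene, the peaks of rank 2765 (chr3R:16834765-16834932) and rank 3993 (chr3R:16837768-16838197) had summits 4782 and 7934 bp from the nearest abd-A TSS. Both lay in lncRNA:iab8, the long transcript of the iab region, and in an intron of the overlapping gene MSAmiP. Replicate ranks were 2024, 3612 and 3543 at the first and 5953, 3061 and 3818 at the second.

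Ubx, which specifies the third thoracic and the first abdominal segments, had 3 IDR peaks inside its body of 77.8 kb, all in introns. Their ranks were 2826 (chr3R:16717974-16718403), 4095 (chr3R:16704218-16704647) and 5067 (chr3R:16673178-16673607), with summits 16237, 29993 and 61033 bp downstream of the Ubx start site. The peak of rank 2826 had scores of 86.1, 71.8 and 94.3 in replicates 1, 2 and 3 and a mean rank of 2924 ± 559 (SD, n = 3). Replicates ranked the peak of rank 5067 at 5148, 4426 and 7959, so replicate 3 placed it low. The remaining 2 peaks lay beyond the 3′ end and belong by position to neighbours. The peak of rank 2753 (chr3R:16646962-16647391) was 173 bp from a TSS of CG10324. The peak of rank 4532 (chr3R:16655778-16655932) was 204 bp from a TSS of modSP, a serine protease gene of the Toll pathway, with its summit in a copy of the transposable element INE-1.

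Abd-B, which specifies the posterior abdomen and is transcribed from several promoters, had 2 IDR peaks that overlap each other in an intron. Their summits, of rank 1226 (chr3R:16958027-16958456, score 428) and 3621 (chr3R:16958301-16958505, score 208), were 200 bp apart, 2039 and 1839 bp downstream of an internal Abd-B start site. At the first, replicates 1, 2 and 3 had scores of 144, 139 and 133 and a mean rank of 1317 ± 155 (SD, n = 3). Each replicate also had an entry of its own at the second, with scores of 79.2, 59.9 and 52.7, ranks of 3665, 4131 and 4829 and a mean rank of 4208 ± 586 (SD, n = 3). All 3 replicates thus listed both summits, the first with the higher score. As these 2 peaks overlap, the 21 Hox peaks merge into 20 intervals.

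A further entry at Abd-B was strong in some replicates and absent from the pooled list. Replicate 2 had an entry at chr3R:16969834-16970263 with a score of 135 and rank 1206, and replicate 3 had one at chr3R:16969878-16970277 with a score of 115 and rank 1711. Their summits lay 1475 and 1504 bp upstream of an Abd-B start site. No entry of replicate 1 or of the pooled list overlapped them. Of the 5508 highest-scoring entries per replicate, 22 in replicate 1, 10 in replicate 2 and 27 in replicate 3 overlapped no pooled entry anywhere in the genome. Among the 3 sites at which such entries of replicates 2 and 3 coincided without any entry of replicate 1, that at Abd-B had the best rank in replicate 2. In replicate 1, an entry at chr3R:16919023-16919442 with rank 3188 in the Abd-B window likewise had no pooled counterpart.

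Antp, which specifies thoracic segments, held 7 IDR peaks, 6 of them in introns of its body of 103 kb. The summits of 5 of these 6 lay between 12683 and 29382 bp downstream of the Antp start site nearest to them, in the 3′ part of the gene, and the sixth lay 3452 bp upstream of the same start site. The peak of rank 711 (chr3R:6914399-6914669) had a score of 563, with 186, 217 and 157 in replicates 1, 2 and 3 and ranks of 906, 471 and 1032. The peak of rank 1063 (chr3R:6912337-6912628, score 461) had ranks of 1167, 1048 and 1042, a mean of 1086 ± 70.5 (SD, n = 3). Its summit was 288 bp from that of the peak of rank 2391 (chr3R:6912673-6912922). The entries nearest to the summit of rank 2391 had ranks of 2069, 2610 and 2815 and scores of 116, 83.0 and 80.8 in replicates 1, 2 and 3. These Antp introns also overlap the annotated gene CG46458, so the peaks cannot be assigned to Antp alone.

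The other Antp peaks were those of rank 1514 (chr3R:6936198-6936447, score 377), 1908 (chr3R:6920091-6920269, score 325) and 2326 (chr3R:6903243-6903672, score 285). The most even across replicates was that of rank 1908, placed at 1763, 1883 and 1929. The least supported was the peak of rank 5208 (chr3R:6893120-6893549), 2918 bp beyond the 3′ end of the gene in lncRNA:CR45559. It had ranks of 3972 in replicate 2 and 6945 in replicate 3, and no entry of replicate 1 overlapped it. It was the only one of the 21 without an entry in all 3 replicates.

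The IDR peaks of the anterior genes ranked between 4074 and 5283. The lab peak (chr3R:6674471-6674900, score 152, rank 5283) lay in an intron 3904 bp downstream of the TSS of this head and midgut gene. Replicates 1, 2 and 3 gave it scores of 72.3, 55.1 and 33.1 and ranks of 4151, 4610 and 8409. The peak of pb, a gene of the mouthparts, lay in an intron 18054 bp downstream of its TSS (chr3R:6723794-6724223, score 191, rank 4074), with replicate ranks of 5140, 3703 and 3307, or 8653 in replicate 2 by the nearest summit. Dfd, a gene of the maxillary and mandibular segments, was the only member with an IDR summit within 500 bp of a TSS of its own. That peak (chr3R:6791299-6791728, score 190, rank 4079) had its summit 322 bp upstream, with replicate ranks of 4213, 3592 and 5260, a mean of 4355 ± 843 (SD, n = 3). By the nearest summit, replicate 3 ranked it 6788.

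Scr, which acts in the labial and first thoracic segments, had 8 pooled entries and no IDR peak. The best of these, chr3R:6818500-6818929 with rank 5662 and score 144, missed the IDR list narrowly, and its replicate ranks were 6121, 10314 and 4726. It lay 3′ of Scr in the DNA between Scr and Dfd. At rank 5661, also just below the list, stood an entry 623 bp upstream of Dfd. In all, 104 of the 125 pooled entries were below the list, and 7 of these had a rank of 7000 or better.

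**Figure D2:**
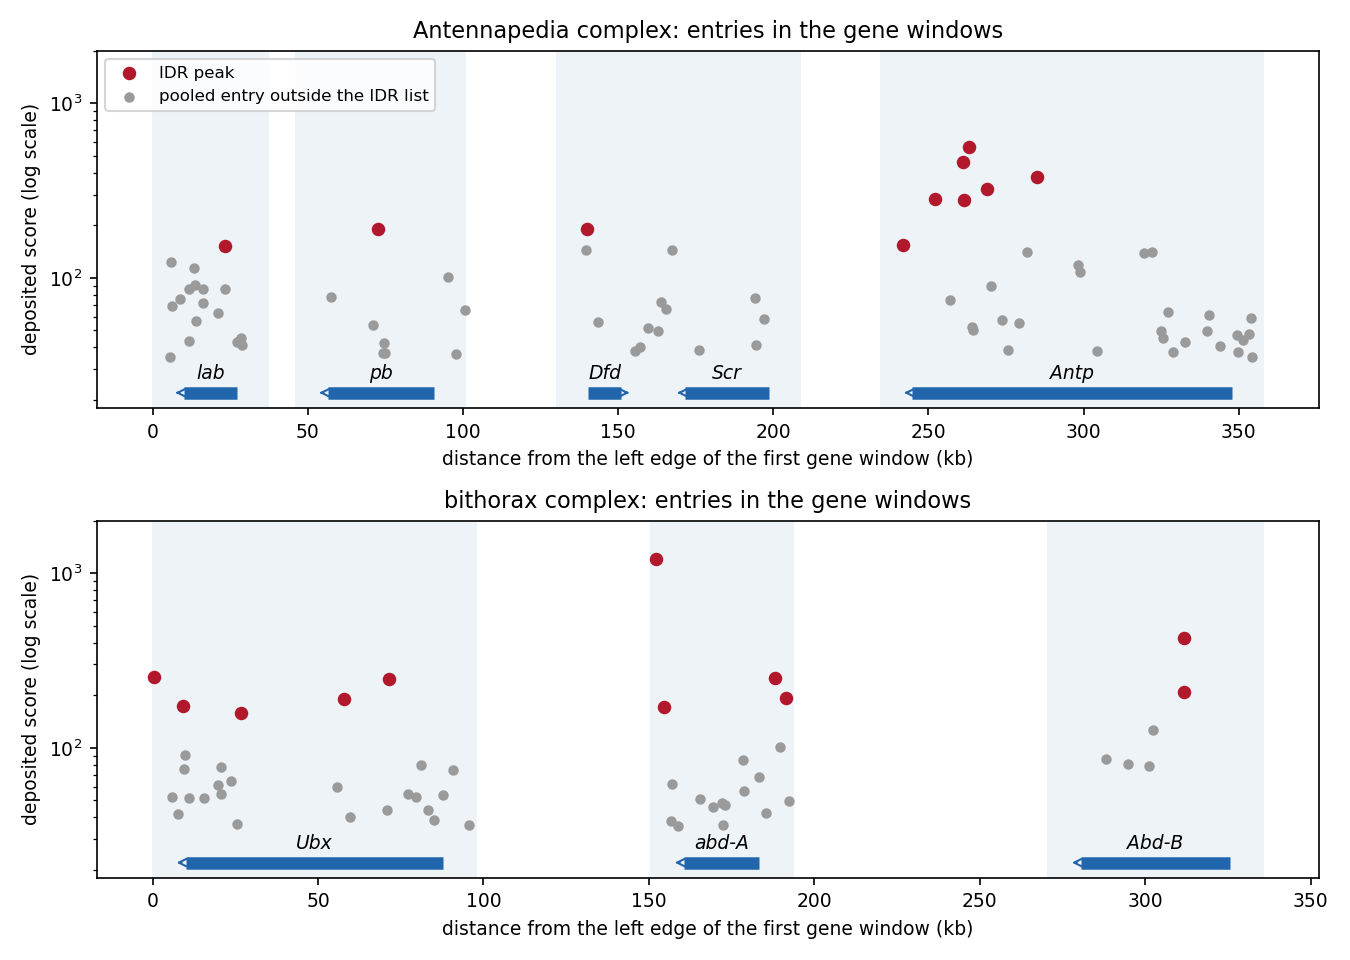
Pooled entries in the 8 gene windows (shaded) of the Antennapedia complex (top) and the bithorax complex (bottom), at their distance in kb from the left edge of the first window and with the deposited score on a log axis; IDR peaks are red, other entries grey, and blue bars are gene bodies with an arrow in the direction of transcription. The IDR peaks of Antp gather in the 3′ part of the gene, and the peak of score 1204 lies 3′ of abd-A.

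Of the 19 start sites of the Hox genes, that of Dfd had an IDR summit within 500 bp. A further 7 had a pooled entry outside the IDR list there, and 11 had no pooled summit within 500 bp. The same shares over all protein-coding start sites are not given here, so these counts cannot be called low or high. These 11 took in all 6 start sites of Abd-B and that of pb, whose nearest pooled summit was 4419 bp away. The nearest pooled summit was 19 bp from the Ubx TSS and had rank 17296, and those 77 bp from the lab TSS and 82 bp from an Scr TSS had ranks 23278 and 15733. At abd-A the entry 50 bp from a TSS had rank 13140. An Antp start site had an entry 219 bp away at rank 5808, just outside the IDR list.

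Across the 21 peaks, 3 summits (14.3%, exact binomial 95% interval 3.05 to 36.3) lay within 500 bp of any protein-coding TSS, against 49.3% of all IDR peaks. These 3 were at Dfd, CG10324 and modSP. Introns held 15 summits (71.4%), against 32.3% of all IDR peaks, and intergenic DNA 3 (14.3%), against 16.9%. Both places were defined by protein-coding genes of any name. The intronic summits of rank 2765 and 3993 lay in MSAmiP, outside the abd-A body. The intergenic summits of rank 5208 and 4624 lay in non-coding genes. More than 10 kb from a TSS lay 12 summits (57.1%), against 9.68% of all IDR peaks, and the median distance was 12683 bp against 527 bp. The rule takes whole bodies of long genes, and the pooled entries of the same windows were likewise seldom near a TSS, 11.2% of 125 against 28.3% of 30000. Of the 14 pooled entries at promoters in the Hox windows 3 were IDR peaks (21.4%), and of the 78 in introns 15 were (19.2%), against 32.0% and 14.9% over the whole pooled list.

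The low promoter share recurred in each replicate. Among the 5508 highest-scoring entries of its own list, 3 of 23 Hox entries in replicate 1, 5 of 26 in replicate 2 and 2 of 22 in replicate 3 were within 500 bp of a TSS, a mean of 13.8% ± 5.11 (SD, n = 3). The entries elsewhere in the genome gave 52.3%, 47.5% and 47.3%, a mean of 49.0% ± 2.83 (SD, n = 3). The difference was −35.3 points ± 6.04 (SD, n = 3) and negative in 3 of 3 replicates (exact sign-flip permutation test over replicates, two-sided, p = 0.25, the smallest that 3 replicates allow). All 3 replicates were counted in the same windows, which take whole bodies of long genes. The test therefore cannot tell a trait of Hox binding from the choice of windows. It was also chosen after values had been seen.

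**Figure D3:**
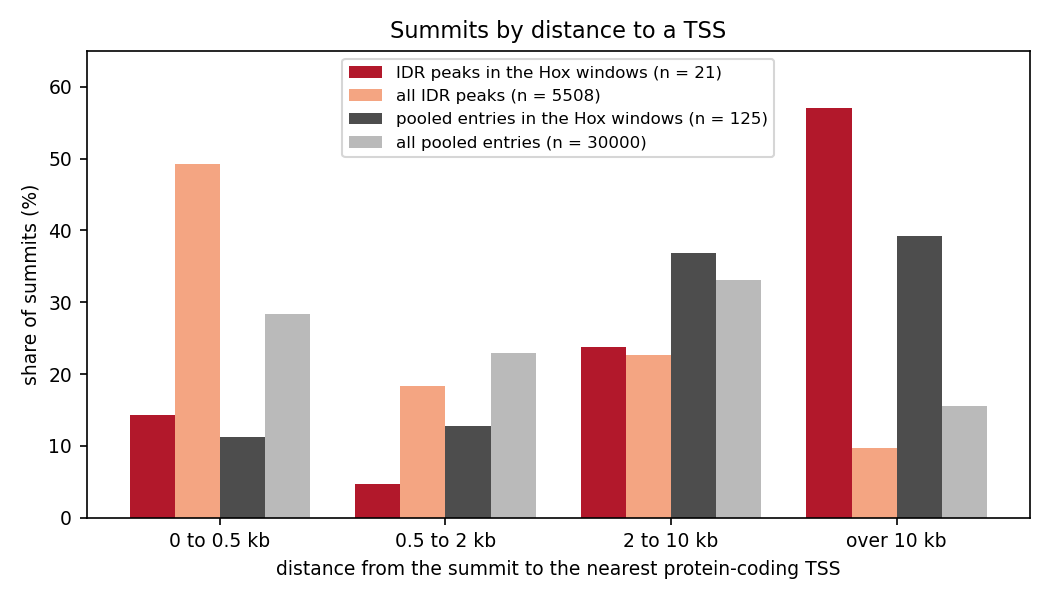
Share of summits (%) in 4 ranges of distance to the nearest protein-coding TSS for IDR peaks in the Hox windows, all IDR peaks, pooled entries in the Hox windows and all pooled entries; bars are shares of 1 list each, with n in the legend. Over 10 kb from a TSS lay 57.1% of the Hox IDR summits against 9.68% of all, and within 0.5 kb 14.3% against 49.3%.

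Among these highest-scoring 5508 entries of each replicate, called top entries here, a slightly larger share lay in the Hox windows than among other entries. The windows held 0.418%, 0.472% and 0.399% of the top entries of replicates 1, 2 and 3, and 0.363%, 0.425% and 0.391% of their other entries. The mean difference was 0.0368 points ± 0.0245 (SD, n = 3), with an exact sign-flip permutation p = 0.25, two-sided, again the smallest possible, and it turned negative when the 2754 highest-scoring entries of each replicate were taken as top entries (−0.0808 points). The median score of the 21 peaks was 249 against 253 for all IDR peaks, and 9 of the 21 were among the 2754 highest-scoring peaks of the list.

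Of the 21 peaks, 15 overlapped a top entry in all 3 replicates (71.4%, exact binomial 95% interval 47.8 to 88.7), against 72.5% of all IDR peaks. Taking instead the overlapping entry with the nearest summit, the count was 13 of 21 (61.9%), against 68.6% of all IDR peaks. By the best-ranked overlapping entry, top entries were found in 2 replicates for 5 peaks, at lab (rank 5283), Ubx (ranks 4532 and 5067) and abd-A (ranks 4624 and 3993), and in 1 replicate for the Antp peak of rank 5208. The IDR list was made from these replicates, so this overlap is not an independent check.

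**Figure D4:**
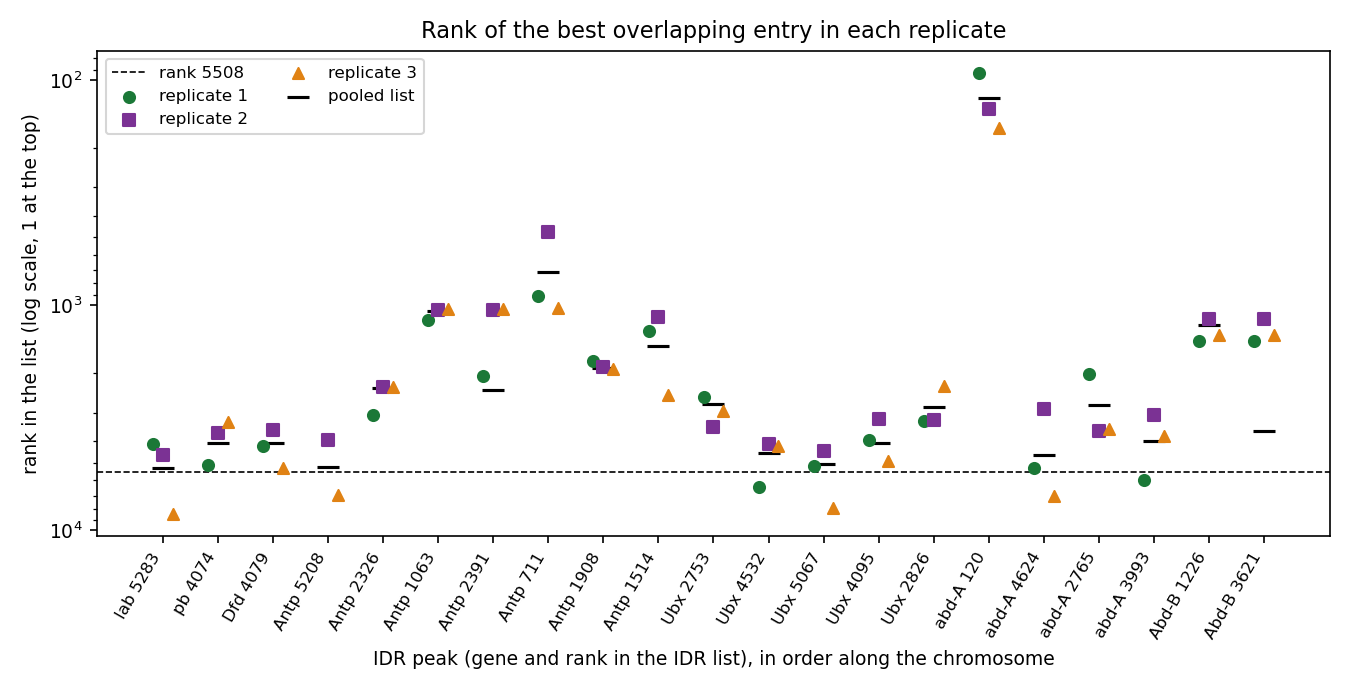
Rank (log axis, 1 at the top) of the best overlapping entry in replicates 1, 2 and 3 for the 21 IDR peaks. Peaks are named by gene and by their rank in the IDR list and placed in order along the chromosome. Black dashes give the rank in the pooled list, which is the same as in the IDR list, and the dashed line marks rank 5508. The abd-A peak of rank 120 stands far above the others in every replicate, and symbols below the line are peaks that a replicate placed outside its top entries. At Abd-B 3621 in every replicate, and at Antp 2391 in replicates 2 and 3, the best overlapping entry is that of the stronger neighbouring peak.

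A whole Tinman site, TCAAGTG or TTAAGTG on either strand, lay inside the 101 bp around 0 of the 21 summits, against 4.23% of all IDR summits. Of the 2792 IDR summits outside promoters, 5.16% held one. The exact binomial 95% interval of the Hox share was 0 to 16.1%. Allowing 3 counts for a count of 0 gives a share of up to 14.3%. Inside the full peak, 3 of 21 held a site (14.3%), as did 13.8% of all IDR peaks and 16.4% of those outside promoters. These 3 sites are shown with 20 bases to each side, on the plus strand, with the site in capitals.
Antp peak of rank 2326, chr3R:6903264-6903310: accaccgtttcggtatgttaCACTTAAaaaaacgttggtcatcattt
Antp peak of rank 1908, chr3R:6920184-6920230: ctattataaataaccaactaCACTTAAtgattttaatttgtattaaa
Ubx peak of rank 4095, chr3R:16704527-16704573: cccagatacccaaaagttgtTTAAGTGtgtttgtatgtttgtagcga
All 3 have the TTAAGTG form, and they lay 171, 50 and 117 bp from the summit, counted to the middle base of the site. The site of the peak of rank 1908 thus lies across the edge of the 101 bp and was not counted in them.

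Of the other motifs, searched on both strands in the same 101 bp, GCCAT, the core of the site of the Polycomb recruiter Pho, was at 4 of the 21 summits (19.0%), against 14.6% of all IDR summits. TAATTA, a core bound by many homeodomains, was at 1 of 21 against 8.66%, and TGATNNAT, a site of the cofactor Exd with a Hox protein, at 0 against 7.95%. AGNTGGCGC, of the insulator protein CTCF, and CAGGTAG were at 1 each, against 2.07% and 0.508%. GAGAGAG of GAGA factor, TATCGATA of DREF and GGTCACACT of M1BP were at 0 of 21, against 1.11%, 2.58% and 1.07% of all IDR summits and 0.824%, 0.179% and 0.179% of the 2792 outside promoters. Of the IDR summits outside promoters, 13.6% had GCCAT, 9.20% TAATTA, 8.52% TGATNNAT, 2.51% AGNTGGCGC and 0.609% CAGGTAG. With 100 bp to each side, TAATTA was at 5 of 21, TGATNNAT at 2, TATCGATA at 1 and GCCAT at 7. With 25 bp, GCCAT was at 2 and AGNTGGCGC at 0. Shares over all IDR summits at these 2 widths are not given here for these motifs, so these counts have no background. For the Tinman site, the share over all IDR summits rose from 4.23% with 50 bp to 8.79% with 100 bp. The AGNTGGCGC and GCCAT matches at the abd-A peak of rank 2765 overlap each other, and TAATTA was at the Ubx peak of rank 2826. Both stretches are shown for these matches.
abd-A upstream peak, chr3R:16834781-16834881: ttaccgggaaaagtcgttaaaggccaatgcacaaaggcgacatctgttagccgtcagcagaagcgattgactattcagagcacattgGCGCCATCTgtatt
Ubx intronic peak, chr3R:16718139-16718239: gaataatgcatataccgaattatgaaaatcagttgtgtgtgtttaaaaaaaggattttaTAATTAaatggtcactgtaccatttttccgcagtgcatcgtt

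Among genes that act with the Hox genes, hth stood out by the number of its peaks. Its window of 152 kb held 13 IDR summits, more than at 99.9% of protein-coding genes, and 91 pooled entries. The window was long, against a median of 22.2 kb over all protein-coding genes. Per 10 kb it held 0.855 IDR peaks, against a median of 0.466. The best lay in an intron (chr3R:10597649-10597893, rank 1311, replicate ranks 1124, 1671 and 1304). The hth protein is the cofactor that brings Exd into the nucleus, while exd itself was without an IDR summit and reached rank 8682 at best among pooled entries. Of the trunk selector genes, tsh had 1 IDR peak (rank 992) and tio none. Within the Antennapedia complex, the windows of bcd and zen shared the same 4 IDR peaks, the strongest 219 bp from the bcd TSS (chr3R:6759544-6759830, score 523, rank 851, replicate ranks 762, 774 and 1097). No IDR peak lay at ftz or zen2, or at the gap genes hb, Kr, gt and kni, and tll had 1 (rank 4840). In all, 5 of these 13 genes had an IDR summit, against 68.1% of all genes.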

How the data were processed

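Per the notes deposited with the samples, the authors made narrowPeak lists on dm6 of each replicate and of the pooled replicates from alignments set against a control, while the IDR list derives from those 4 lists. For the aligner, the caller of peaks and the IDR threshold, names and settings were not given in the sources used here. As score, the authors deposited the values of the signal column, with no stated scale, and they ranked entries within a list. The deposited −log10 q, constant at 4.05 in the IDR list, served as an alternative only. Summits are the entry start plus the deposited summit offset. The lists on dm3 were not used.

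Genes and start sites came from Ensembl release 115 (BDGP6.54) and sequence from RefSeq Release 6, both on dm6. Start sites, promoters, introns and intergenic DNA were defined by protein-coding genes only. A peak was matched in a replicate by its best-ranked entry with an overlap of at least 1 bp, which can be that of a stronger neighbour, so the entry with the nearest summit was taken as an alternative. A top entry is among the 5508 highest-scoring of its list. Shares carry exact binomial (Clopper-Pearson) 95% intervals that cover counting error only. A count of 0 allows 3 counts. The exact sign-flip permutation test used the 3 replicates, 1 group numbered as in the labels. The labels call them biological replicates, all of the same line. The labels name tin as the antibody, and their description GFP. All 8 genes, the IDR peaks in their windows and 3 lists (4 other homeobox genes of the complex, 4 cofactors and trunk selectors, 5 gap genes) are named by rule. The members and lists were chosen with earlier results of these data known, and the promoter share per replicate, the entries without a pooled counterpart, the Tinman sites inside peaks, the nearest-summit alternative and the last 2 sequences were chosen after values had been seen. Scripts used Python 3.11.15 with pandas 2.3.3, and were checked on entries and motifs of known position.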

Additional observations from a re-analysis of the deposited data

How the results depend on the processing

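The number of Hox genes with an IDR summit was 4 among the 2754 highest-scoring IDR peaks, against 7 in the full list, as fewer peaks are counted. It was 5 to 7 with windows of 0, 2 or 20 kb, and 6 to 7 with a replicate left out. The share of all protein-coding genes under each of these settings is not given here. Whether the count stayed near the background therefore cannot be seen. The number of IDR peaks was 13 in the gene bodies alone and 9 among the 2754 highest-scoring, against 21, and it was 15 to 18 with a replicate left out. Without replicate 1, 2 or 3, a peak counted when both other replicates had a top entry there. The difference between top and other entries was −0.0808 points with 2754 top entries per replicate, where the exact sign-flip permutation p was again 0.25. The cause of that reversal was not tested. This difference was 0.0281 to 0.0508 points with a replicate left out. It was 0.0107 points in the gene bodies alone, 0.0206 with windows of 2 kb and 0.0663 with windows of 20 kb. For gene bodies and for 2 kb the exact sign-flip permutation p was above 0.25, so the 3 replicates did not all agree in sign. A whole Tinman site lay at 1 of 21 summits with 100 bp to each side, against 0 with 50 bp, and at 8.79% of all IDR summits with 100 bp. Top entries in all 3 replicates were found for 11 to 20 of the 21 peaks under another overlap, the nearest summit (chosen after seeing the data), the −log10 q or whole replicate lists, and in both remaining replicates for 15 to 18. Promoter summits numbered 2 within 250 bp and 3 within 1000 bp. No paired analysis was possible because there was no second group of samples to pair, and the sign-flip tests compare values within each replicate. With 3 replicates and no read counts, differences between genes in the number of peaks have no error.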

Other observations

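Between the gene windows, each complex held 5 further IDR peaks, so that the span from lab to Antp had 15 and that from Ubx to Abd-B had 16, or 41.9 and 47.7 per Mb. In the bithorax complex 3 of these lay in lncRNA:bxd, a transcript of the regulatory region upstream of Ubx, with ranks 1764, 3238 and 4609. The first, chr3R:16748646-16748838, was 14.3 kb from the Ubx body, with replicate ranks of 1297, 1809 and 3264. A peak in lncRNA:iab8 and an intron of MSAmiP, chr3R:16869264-16869507, had rank 1355 and stood 39.3 kb from abd-A, with replicate ranks of 1088, 1276 and 2079. The fifth, rank 2869, lay 12.8 kb 3′ of abd-A. In the Antennapedia complex, 2 peaks were at the TSS of Ama, which encodes a protein of the immunoglobulin superfamily, at 376 and 152 bp and with ranks 862 and 3507. The other 3 were the bcd promoter peak, a peak of rank 3656 near it and a peak of rank 2220 in lncRNA:CR44931, 14.5 kb from Antp.

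The summit stretches of the abd-A peaks of rank 120 and 2765, which lie on opposite sides of the gene, share the 10-base word GGCGACATCT, at base 88 of the first and base 36 of the second. It occurred at 4 of all 5508 IDR summits (0.0726%), 2 of which were among the 500 with the highest scores. The 4 include the 2 abd-A summits from which the word was taken, and the 2 include that of rank 120. The word was chosen after the sequences had been seen, and other pairs of Hox summits shared words of up to 12 bases.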
